A study of Homo sapiens with 6 samples.

Results

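Matrix metalloproteinases (MMPs) and the proteins that restrain them were followed in WM3248 cells, a human line grown from a primary melanoma. The set held 10 genes of the 57688 rows of the deposited table: MMP1, MMP2, MMP14, MMP15 and MMP17, the inhibitors TIMP1, TIMP2, TIMP3 and RECK, and BSG. They were matched by gene symbol, and all 10 were among the 12020 genes tested. The genes were chosen by their role and by measured values of these libraries, the FPKM levels and the siPGC1a against siNC differences described here. The calls below therefore describe the 10 genes and are no independent evidence of a direction.

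In the siPGC1a group (n = 3 libraries) cells received an siRNA against PPARGC1A, the gene of the coactivator PGC1-alpha, and in the siNC group (n = 3) they received the AllStars negative control siRNA. Both siRNAs were given at 30 nM with a lipid reagent, and RNA was taken 48 h later. Both groups grew in the same medium, with serum, insulin, pituitary extract and epidermal growth factor. A single cell line and a single siRNA against PPARGC1A were used, and nothing in the labels tells if replicate libraries stem from different cultures. The p-values thus measure the spread between these libraries, which may be technical. The FPKM values (fragments per kilobase of transcript, scaled to the reads of the library) were scaled to 25180000 to 26440000 reads per library. This number was worked out from the values themselves, and the number of reads sequenced is not known from them. The targeted gene, PPARGC1A, was at 0.4, 0.354 and 0.413 FPKM in the siPGC1a libraries, against 0.932, 1.04 and 0.947 FPKM in the siNC libraries (limma adjusted p = 0.000234). None of the 7 melanocyte lineage markers was at 0, and their summed level was 1414 to 1423 FPKM in siPGC1a libraries and 1439 to 1479 FPKM in siNC libraries. Of the 7, 1 was called higher in siPGC1a (S100B), 4 lower (DCT, PMEL, MLANA and MITF) and 2 not called (SOX10 and TYR). Among all tested genes, 25.6% were called higher and 22.5% lower. S100B, the largest part of the sum, was at 923.9 ± 24.2 FPKM in siPGC1a and 801.9 ± 9.71 FPKM in siNC. DCT was at 253 ± 12.4 and 394 ± 11.2 FPKM in the same order (SD, n = 3 each). SOX10 was at 230 and 246 FPKM in mean. Far lower were MITF at 5.52 and 7.24 FPKM and PMEL at 3.77 and 5.29 FPKM. TYR was at 1.13 and 1.44 FPKM and MLANA at 1.02 and 1.86 FPKM.

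MMPs are zinc endopeptidases that cut collagens, basement membrane and cell surface proteins. They are made as inactive proenzymes, and most are secreted, while a few stay anchored in the plasma membrane. The TIMPs block the active site of the mature enzyme, and RECK restrains MMPs from the cell surface. MMP14 at the cell surface, with TIMP2 as a bridge, activates the MMP2 proenzyme, and these proteins have long been studied in melanoma invasion. BSG (basigin, CD147) is known for inducing MMPs in neighbouring cells and for carrying lactate transporters to the membrane.

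The RefSeq promoter table (build GRCh38.p14, 250 bases before to 50 after the gene start) held 6 of the 10 genes, namely MMP14, MMP15, TIMP1, TIMP3, RECK and BSG. The promoters of MMP15 and RECK, which were lower in siPGC1a, and of TIMP3, which was higher, are shown to set genes of opposite direction side by side. Capitals mark the GC box word GGGCGG on either strand.
MMP15, chr16:58025504-58025803, plus strand: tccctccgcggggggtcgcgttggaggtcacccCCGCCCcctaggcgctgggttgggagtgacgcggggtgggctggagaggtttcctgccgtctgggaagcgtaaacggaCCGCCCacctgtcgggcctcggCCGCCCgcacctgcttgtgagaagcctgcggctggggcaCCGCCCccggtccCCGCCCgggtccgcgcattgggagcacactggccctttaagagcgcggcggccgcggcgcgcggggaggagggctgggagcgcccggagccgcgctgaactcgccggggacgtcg
RECK, chr9:36036663-36036962, plus strand: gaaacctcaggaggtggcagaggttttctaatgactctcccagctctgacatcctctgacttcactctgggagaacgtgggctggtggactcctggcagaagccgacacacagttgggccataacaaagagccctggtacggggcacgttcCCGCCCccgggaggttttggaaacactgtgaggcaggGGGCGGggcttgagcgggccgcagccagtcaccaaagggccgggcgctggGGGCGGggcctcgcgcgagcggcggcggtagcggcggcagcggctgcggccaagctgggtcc
TIMP3, chr22:32801455-32801754, plus strand: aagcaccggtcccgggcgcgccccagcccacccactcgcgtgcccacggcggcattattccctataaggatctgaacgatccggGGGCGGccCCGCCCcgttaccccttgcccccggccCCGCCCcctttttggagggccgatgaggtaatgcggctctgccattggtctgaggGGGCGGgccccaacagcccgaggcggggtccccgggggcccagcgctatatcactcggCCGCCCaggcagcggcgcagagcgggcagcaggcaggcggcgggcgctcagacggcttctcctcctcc

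MMP15 and TIMP3 each held 5 GC boxes in this window and RECK held 3, and 45.0% of the 35116 promoters in the table held at least 1. The bases C and G made up 75.3% of the MMP15 window, 66.7% of the RECK window and 72.7% of the TIMP3 window, against a median of 58.7% over the table. The word CCAAT, searched on both strands, stood once each in MMP14, MMP15 and TIMP3 and in 34.6% of all promoters. The AP-1 word TGANTCA was in 0 of the 7 windows of these 6 genes (BSG has 2) and in 7.71% of all promoters. A match or its absence describes these letters only.

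Of the 10 genes, 2 were higher in siPGC1a (MMP1 and TIMP3), 4 were lower (MMP2, MMP15, TIMP2 and RECK) and 4 did not pass (MMP14, MMP17, TIMP1 and BSG). Calls are from limma on log2(FPKM + 1), at a Benjamini-Hochberg adjusted p under 0.05 over all tested genes. Across the transcriptome 48.1% of genes were called, 25.6% higher and 22.5% lower. The 3 values of a group lay wholly above or below those of the other for 6 of the 10 genes, and for 57.2% of all tested genes. The median log2 fold change was -0.09 over the 10 genes and 0.01 over all genes. Nothing is read from these shares, since the set was chosen with the comparison known.

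**Figure D1:**
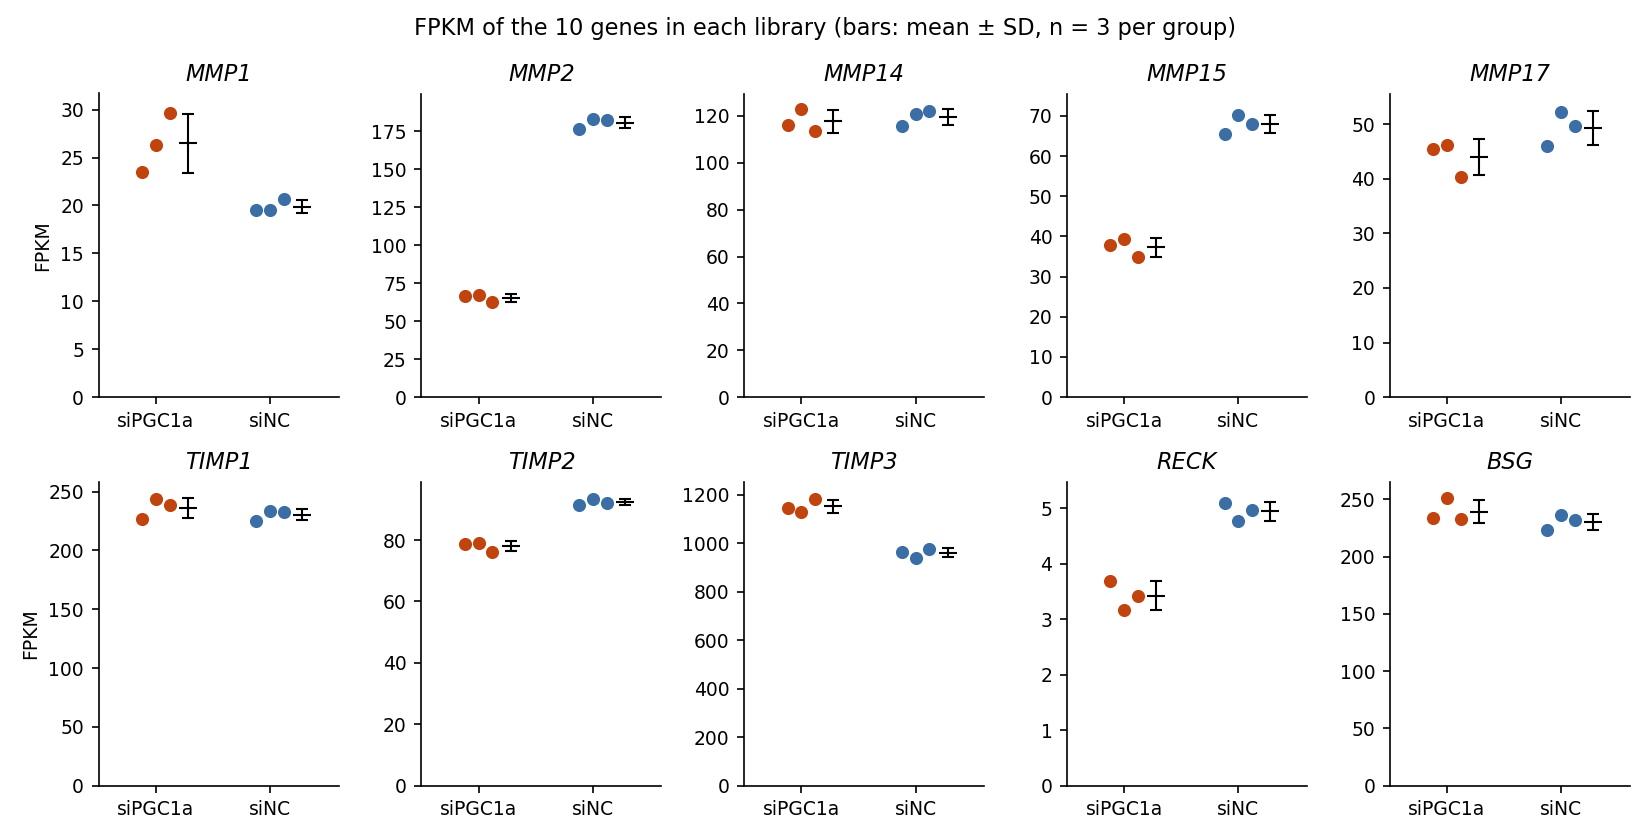
FPKM of each of the 10 genes (y axis, from 0, own scale per gene) in the siPGC1a and siNC libraries (points), with mean ± SD beside them (n = 3 per group). MMP2 lies at 62.4 to 67.1 FPKM in siPGC1a libraries, against 177 to 183 FPKM in siNC libraries, whereas the points of MMP14, MMP17, TIMP1 and BSG overlap.

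MMP2, gelatinase A, which cuts denatured collagen and collagen IV of basement membranes, had the largest fold change of the set. It was at 66.3, 67.1 and 62.4 FPKM in the siPGC1a libraries, against 177, 183 and 182 FPKM in the siNC libraries. Each siPGC1a library was far below every siNC library, and the spread within a group was under 4 FPKM as SD. The means were 65.3 ± 2.53 and 180.9 ± 3.48 FPKM (SD, n = 3 each), so MMP2 fell by 63.9% (log2 fold change -1.46, SE 0.04, limma adjusted p = 6.87e-08). In the order of falls across all tested genes it ranked 2. About 8012 to 8362 reads per siPGC1a library and 22735 to 23139 per siNC library stood behind these values, with exon length from GENCODE. Since RNA came from whole cultures, fewer cells with a transcript and less of it per cell cannot be told apart.

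MMP1, interstitial collagenase, which opens the triple helix of fibrillar collagen, moved the other way. It was at 23.5, 26.3 and 29.7 FPKM in the siPGC1a libraries, against 19.5, 19.5 and 20.6 FPKM in the siNC libraries. The siPGC1a libraries were all above the siNC ones but varied more among themselves, with a coefficient of variation of 11.6% against 3.31%. The mean of 26.5 ± 3.07 FPKM in siPGC1a was 1.33 times the 19.9 ± 0.657 FPKM in siNC (SD, n = 3 each; log2 fold change 0.39, SE 0.07, limma adjusted p = 0.00171). MMP1 is the smallest of the 5 MMP members in level and rested on 1184 to 1521 reads per siPGC1a library and 983 to 1027 per siNC library.

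The 3 membrane-anchored enzymes differed among themselves. MMP15, a transmembrane MMP, was at 37.8, 39.3 and 34.8 FPKM in the siPGC1a libraries, against 65.6, 70.2 and 68.0 FPKM in the siNC libraries. No siPGC1a library reached a siNC library, and MMP15 fell by 45.1% in mean (log2 fold change -0.85, SE 0.05, limma adjusted p = 2.98e-06). MMP14, also transmembrane and the activator of the MMP2 proenzyme, was at 116, 123 and 114 FPKM in siPGC1a libraries and 116, 121 and 122 FPKM in siNC libraries. These values overlapped, and the log2 fold change was -0.02 with a 95% interval of -0.12 to 0.07 (limma adjusted p = 0.656). MMP17, which is held in the membrane by a glycolipid anchor, was at 45.5, 46.2 and 40.3 FPKM in siPGC1a libraries and 46.0, 52.1 and 49.7 FPKM in siNC libraries. Its siPGC1a replicate 2 stood above siNC replicate 1, and it did not pass (log2 fold change -0.16, 95% interval -0.30 to -0.02, limma adjusted p = 0.0554). Leaving out siNC replicate 1 or siPGC1a replicate 2 made MMP17 a lower call (limma adjusted p = 0.0242 and 0.0371), as did 3 more of the 12 settings, over which the adjusted p spanned 0.014 to 0.201.

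**Figure D2:**
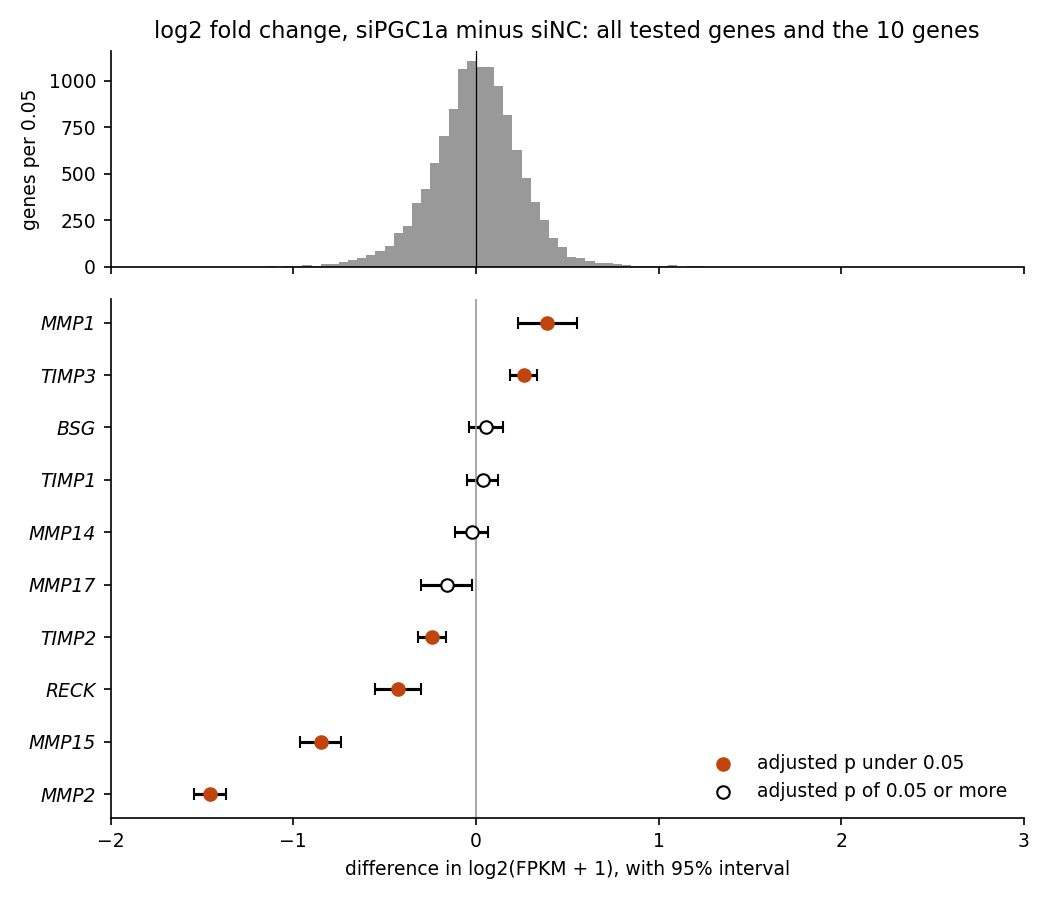
Upper panel, number of tested genes per 0.05 of log2 fold change (siPGC1a minus siNC, on log2(FPKM + 1)); lower panel, the same quantity for each of the 10 genes with its 95% interval, filled where the adjusted p is under 0.05. MMP2 at -1.46 and MMP15 at -0.85 lie in the sparse left tail, and the intervals of MMP14, TIMP1 and BSG span 0.

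Of the inhibitors, TIMP3 had by far the highest level of the 10 genes. TIMP3 stays bound to the matrix and also restrains ADAM proteases. It was at 1148, 1131 and 1182 FPKM in the siPGC1a libraries, against 966, 939.9 and 977 FPKM in the siNC libraries. The groups did not overlap, and the ratio of the means was 1.20 (1153 ± 25.9 against 961 ± 19.1 FPKM, SD, n = 3 each; log2 fold change 0.26, SE 0.03, limma adjusted p = 0.000197). TIMP2 was at 78.7, 79.1 and 76.0 FPKM in the siPGC1a libraries, against 91.6, 93.3 and 92.0 FPKM in the siNC libraries. It fell by 15.6%, with no overlap and the smallest coefficient of variation of the set in both groups (2.16% and 0.986%; limma adjusted p = 0.000441). TIMP1, a soluble inhibitor that acts poorly on the transmembrane MMPs, was at 227, 243 and 239 FPKM in siPGC1a libraries and 225, 234 and 232 FPKM in siNC libraries. The groups overlapped (log2 fold change 0.04, 95% interval -0.05 to 0.12, limma adjusted p = 0.448).

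RECK, the membrane-anchored inhibitor, had the lowest level. It was at 3.695, 3.16 and 3.42 FPKM in the siPGC1a libraries, against 5.10, 4.76 and 4.97 FPKM in the siNC libraries. All siPGC1a libraries were below all siNC libraries, and RECK fell by 30.7% in mean (log2 fold change -0.43, SE 0.06, limma adjusted p = 0.00026). Behind these values stood 481 to 571 reads per siPGC1a library and 737 to 815 per siNC library. BSG was at 234, 251 and 233 FPKM in siPGC1a libraries and 223, 237 and 232 FPKM in siNC libraries. The groups overlapped (log2 fold change 0.05, 95% interval -0.04 to 0.15, limma adjusted p = 0.309). TIMP1 and BSG were called higher after quantile normalization alone among 12 settings (adjusted p = 0.04 and 0.0429, in ranges of 0.04 to 0.79 and 0.0429 to 0.74). Of the 10 genes, 3 share exon bases with a transcript of the opposite strand. These are 367 of 5633 bases of TIMP2, with a transcript at 0.123 FPKM in mean over the libraries, 150 of 1970 bases of MMP1, with WTAPP1 at 0.0118 FPKM, and 140 of 3797 bases of BSG, with a transcript at 3.89 FPKM. On the same strand, MMP2 shares 174 of 4933 bases with a transcript at 0.006 FPKM. TIMP2 shares 198 of 5633 bases with CEP295NL at 0.0918 FPKM, also on the same strand.

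FPKM is scaled by length, so levels of different genes can be ordered. In siPGC1a cells the order was TIMP3, BSG, TIMP1, MMP14, TIMP2, MMP2, MMP17, MMP15, MMP1 and RECK. In siNC cells it was TIMP3, BSG, TIMP1, MMP2, MMP14, TIMP2, MMP15, MMP17, MMP1 and RECK. MMP2 thus ranked 6 in siPGC1a cells and 4 in siNC cells, below MMP14 and TIMP2 in the first case and above both in the second. MMP15 and MMP17 also stood in opposite order. In both groups the ranges of BSG and TIMP1 overlapped, while all other neighbours were separate in their 3 libraries. TIMP3 exceeded 99.9% of tested genes in both groups, and RECK exceeded 28.8% in siPGC1a and 39.2% in siNC.

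Within a library, ratios of these transcripts do not depend on a factor common to all its genes, but quantile normalization can change them. The ratio of MMP2 to TIMP2 was 0.843, 0.848 and 0.821 in siPGC1a libraries, against 1.93, 1.96 and 1.98 in siNC libraries. MMP14 over TIMP2, the receptor and bridge of MMP2 activation, was 1.48, 1.55 and 1.496 in siPGC1a libraries, against 1.27, 1.30 and 1.32 in siNC libraries. In every siPGC1a library MMP2 over TIMP2 was lower, and MMP14 over TIMP2 higher, than in any siNC library, and TIMP2 is the denominator of both. TIMP3 over TIMP2 was 14.8 ± 0.656 in siPGC1a and 10.4 ± 0.298 in siNC (SD, n = 3 each). These ratios are transcript levels and were not tested, since they combine genes whose difference was known.

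**Figure D3:**
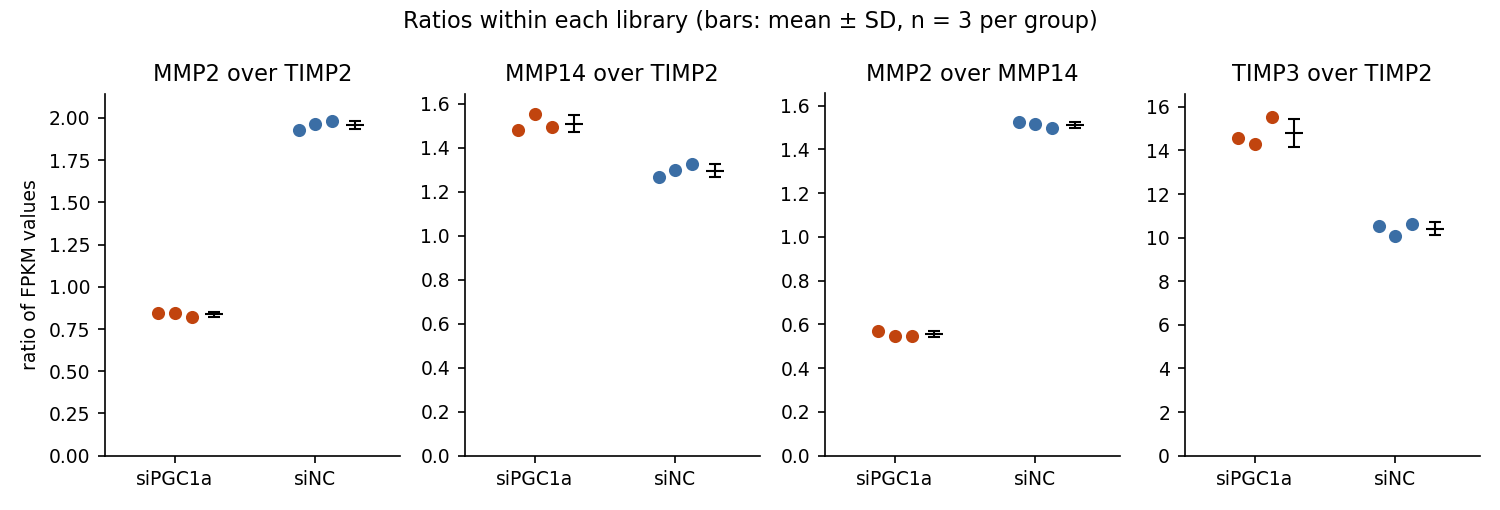
Ratios of FPKM values within each library (y axis from 0) for siPGC1a and siNC libraries (points), with mean ± SD (n = 3 per group). MMP2 over TIMP2 and MMP2 over MMP14 are lower in every siPGC1a library, and MMP14 over TIMP2 and TIMP3 over TIMP2 are higher.

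The summed level of 23 listed MMP genes was 417 ± 8.77 FPKM in siPGC1a cells and 581 ± 9.58 FPKM in siNC cells (SD, n = 3 each), and without MMP2 it was 351 ± 6.73 and 400.4 ± 6.14 FPKM. MMP2 made up 15.7 ± 0.37% of the sum in siPGC1a cells and 31.1 ± 0.106% in siNC cells. MMP14 made up 28.2 ± 0.543% in siPGC1a cells and 20.6 ± 0.278% in siNC cells, although its own level was not called different. The leading MMP transcript was thus MMP14 in siPGC1a libraries and MMP2 in siNC libraries. The summed level of the 4 TIMP genes was 1468 ± 24.9 FPKM in siPGC1a cells and 1284 ± 17.3 FPKM in siNC cells, of which TIMP3 held 78.6 ± 0.664% and 74.8 ± 0.603%.

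**Figure D4:**
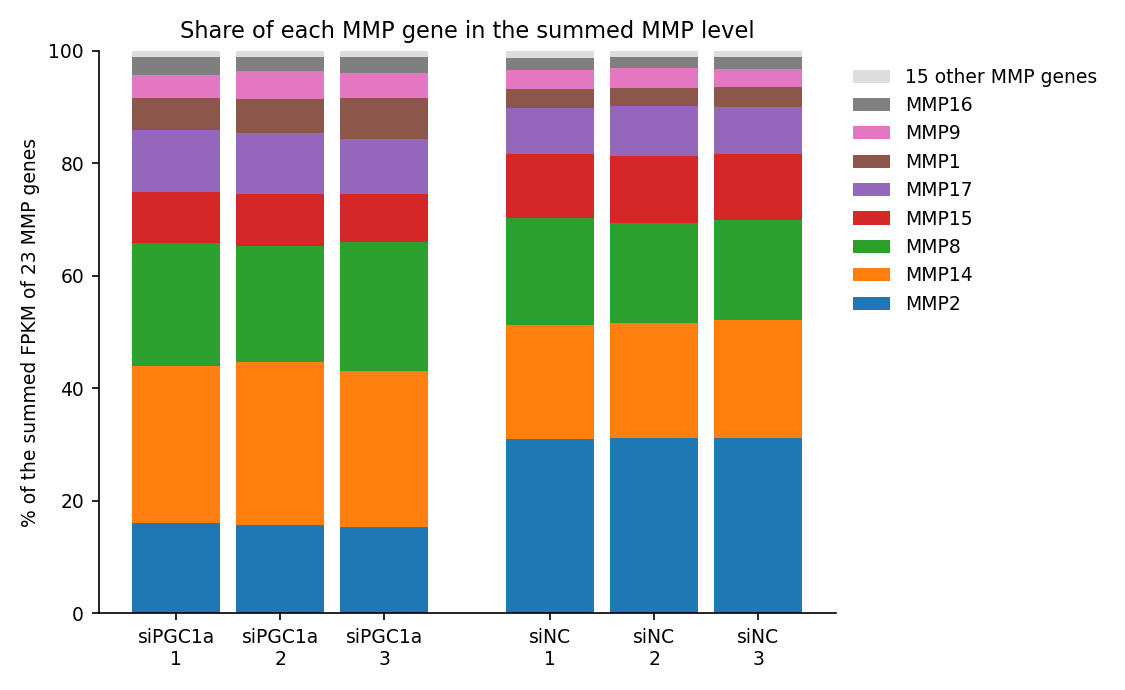
Percent of the summed FPKM of 23 MMP genes held by each gene (y axis) in each siPGC1a and siNC library (bars). The lowest block, MMP2, takes 15.3 to 16.0% in siPGC1a libraries and 31.0 to 31.2% in siNC libraries.

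The other 18 genes of the MMP family were read alongside. Of these, 5 passed the filter, 0 were higher, 3 lower and 2 not called, beside 22.5% of all tested genes called lower. MMP8, neutrophil collagenase, stood at 90.3, 88.0 and 93.5 FPKM in siPGC1a libraries, against 108, 104 and 104 FPKM in siNC libraries. It fell by 14.1% with no overlap (limma adjusted p = 0.00123). MMP3, stromelysin, was at 1.31 ± 0.291 FPKM in siPGC1a and 2.36 ± 0.0655 FPKM in siNC (limma adjusted p = 0.000798), and MMP11 was at 1.01 ± 0.134 and 1.79 ± 0.123 FPKM in the same order (limma adjusted p = 0.000484; SD, n = 3 each). MMP9, the other gelatinase, was at 18.6 ± 1.76 FPKM in siPGC1a and 19.3 ± 0.798 FPKM in siNC (limma adjusted p = 0.501), and MMP16 was at 12.2 ± 1.17 and 12.0 ± 0.712 FPKM (limma adjusted p = 0.839). Of the 13 under the filter, MMP21 and MMP26 were listed at 0 in all libraries. MMP19 was at 0.680 ± 0.0494 FPKM in siPGC1a and 1.17 ± 0.0344 FPKM in siNC, and MMP25 at 0.549 ± 0.0894 and 0.698 ± 0.0224 FPKM (n = 3 each; exact two-sided permutation p = 0.1 for each, the smallest that 3 against 3 can give). In the fit without a filter, MMP19 was called lower (limma adjusted p = 0.0085) and MMP25 was not called (limma adjusted p = 0.234). MMP12, MMP10 and TIMP4 were at 0.528, 0.200 and 0.555 FPKM in siPGC1a and 0.495, 0.242 and 0.652 FPKM in siNC, with overlap.

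On chromosome 11, 9 MMP genes follow each other with no other protein-coding gene between them in the RefSeq annotation, in the order MMP7, MMP20, MMP27, MMP8, MMP10, MMP1, MMP3, MMP12 and MMP13. Within this row the collagenase MMP1 was higher in siPGC1a, while MMP3 beside it and MMP8 on its other side, beyond MMP10, were lower. The other 6 genes of the row averaged at most 0.528 FPKM in siPGC1a and 0.495 FPKM in siNC.

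**Figure D5:**
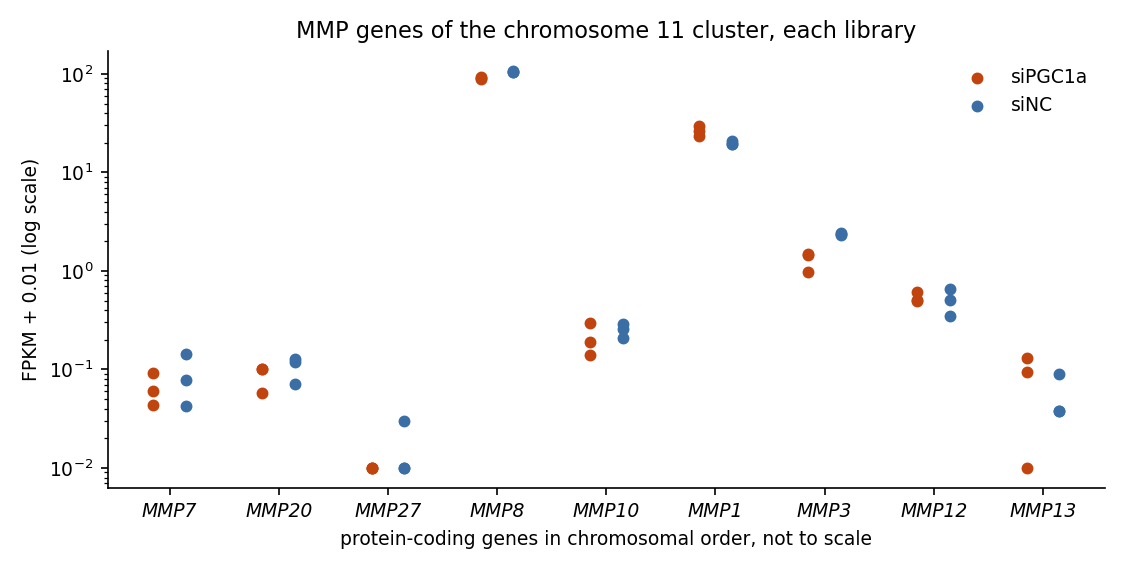
FPKM + 0.01 (log axis) of 9 MMP genes of chromosome 11 in chromosomal order (x axis, not to scale) in siPGC1a and siNC libraries (points). MMP8 and MMP1 stand above the rest, MMP1 is higher in siPGC1a, and MMP8 and MMP3 are lower.

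Of 8 tested ADAM genes, a membrane-bound family that includes sheddases, 0 were higher, 4 lower and 4 not called. Their median log2 fold change was -0.21, and 22.5% of all tested genes were called lower. ADAM9 was at 7.49 ± 0.302 FPKM in siPGC1a and 14.0 ± 0.495 FPKM in siNC (limma adjusted p = 2.39e-06), and ADAM23 at 14.3 ± 0.632 and 18.8 ± 0.156 FPKM (adjusted p = 0.000129; SD, n = 3 each). Of 9 tested ADAMTS genes, secreted relatives that cut proteoglycans and procollagens, 0 were higher, 6 lower and 3 not called (median -0.19). ADAMTS15 was at 9.31 ± 0.53 FPKM in siPGC1a and 17.0 ± 0.264 FPKM in siNC (limma adjusted p = 2.98e-06), and ADAMTS12 at 3.43 ± 0.169 and 5.26 ± 0.345 FPKM (adjusted p = 0.000112; SD, n = 3 each).

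Among 3 tested inhibitors outside the set, TFPI2, a Kunitz-type inhibitor of plasmin and some MMPs, rose 2.42-fold in mean. It was at 19.9, 20.4 and 20.8 FPKM in siPGC1a libraries, against 7.89, 9.11 and 8.24 FPKM in siNC libraries (log2 fold change 1.18, limma adjusted p = 6.57e-07). A2M, the broad protease trap alpha-2-macroglobulin, was at 54.7 ± 0.99 FPKM in siPGC1a and 62.8 ± 1.73 FPKM in siNC (n = 3 each, limma adjusted p = 0.0022). SPOCK1 was not called. Of 4 tested proenzyme activators, 1 was higher, 1 lower and 2 not called, beside 25.6% higher and 22.5% lower over all tested genes. PLAT, tissue plasminogen activator, was at 51.1 ± 0.64 FPKM in siPGC1a and 44.5 ± 0.757 FPKM in siNC (limma adjusted p = 0.00157). PCSK5, a proprotein convertase, was at 1.74 ± 0.159 and 2.17 ± 0.0886 FPKM (adjusted p = 0.0171; SD, n = 3 each), but was no longer called when siNC replicate 1 (0.0577), siPGC1a replicate 3 (0.0559) or the filter (0.0688) was left out, the adjusted p spanning 0.013 to 0.0688 over its settings.

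Of 7 surface partners and clearance receptors of MMPs, 1 was higher, 5 lower and 1 not called. Over all tested genes, 25.6% were called higher and 22.5% lower. THBS2, thrombospondin 2, which carries MMP2 to clearance, was at 266 ± 14.0 FPKM in siPGC1a and 188 ± 4.04 FPKM in siNC (limma adjusted p = 2.47e-05). Its relative THBS1 was at 33.9 ± 0.715 and 52.3 ± 3.66 FPKM (adjusted p = 1.89e-05), and CAV1, caveolin, at 9.97 ± 0.532 and 12.4 ± 0.64 FPKM (adjusted p = 0.00157; SD, n = 3 each). Of 5 tested genes around BSG, 3 were higher and 2 not called. SLC16A3, a lactate exporter that BSG escorts, was at 35.1 ± 0.955 FPKM in siPGC1a and 27.1 ± 0.982 FPKM in siNC (limma adjusted p = 0.000131). PPIA, cyclophilin A, a ligand of BSG, was at 24.7 ± 1.047 and 20.5 ± 0.565 FPKM (adjusted p = 0.00116; SD, n = 3 each), a value made uncertain by its many near-identical copies in the genome.

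Of 8 tested AP-1 and ETS factors, families known to act on MMP promoters, 4 were higher, 3 lower and 1 not called. The shares over all tested genes were 25.6% higher and 22.5% lower. FOSL1 was at 54.5 ± 2.23 FPKM in siPGC1a and 25.2 ± 1.20 FPKM in siNC, and JUNB at 24.0 ± 1.51 and 17.3 ± 0.92 FPKM. JUN was at 10.6 ± 0.464 FPKM in siPGC1a and 15.2 ± 0.855 FPKM in siNC, and FOSL2 at 2.69 ± 0.011 and 4.28 ± 0.384 FPKM (SD, n = 3 each; limma adjusted p of at most 0.000159 for each). Of 7 tested substrate genes, 1 was higher, 5 lower and 1 not called, beside the same shares. COL1A2 was at 1.56 ± 0.0277 FPKM in siPGC1a and 3.04 ± 0.139 FPKM in siNC (limma adjusted p = 1.61e-05), and COL1A1 at 2.11 ± 0.101 and 2.95 ± 0.139 FPKM (adjusted p = 0.00076). LAMC1 was at 293 ± 9.96 FPKM in siPGC1a and 268 ± 2.55 FPKM in siNC (adjusted p = 0.0165), but was no longer called when siNC replicate 3 (0.0763) or the filter (0.0885) was left out, the adjusted p spanning 0.00781 to 0.0885 over its settings.

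Fibroblasts are a known source of MMP2 and TIMPs, so their markers were set beside the set. All 5 tested fibroblast markers of 7 listed were lower in siPGC1a, beside 22.5% of all tested genes. Of these markers, 3 are the collagens that are also in the substrate list, and 0 of the 7 were at 0 in every library. The 7 fibroblast markers summed to 15.6 to 17.2 FPKM in siPGC1a libraries and 21.98 to 22.9 FPKM in siNC libraries. LUM led them at 6.38 FPKM in siPGC1a and 8.51 FPKM in siNC in mean. DCN and PDGFRB, under the filter, were at 0.0517 and 0.686 FPKM in siPGC1a and 0.13 and 0.944 FPKM in siNC. The 4 immune markers summed to 2.39 to 3.35 FPKM in siPGC1a and 3.36 to 3.55 FPKM in siNC libraries, with PTPRC listed at 0. The 4 keratinocyte markers summed to 20.7 to 25.8 FPKM in siPGC1a and 20.5 to 21.3 FPKM in siNC libraries. Nearly all of this was KRT10, at 22.4 FPKM in siPGC1a and 20.6 FPKM in siNC in mean and not called, while KRT14 was at 0.346 and 0.425 FPKM and KRT1 was listed at 0. The endothelial markers VWF and CDH5 summed to at most 0.089 FPKM in siPGC1a and 0.171 FPKM in siNC. The part of any of these marker lists in the MMP values was not tested.

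Among the genes nearest to MMP2 in pattern, by Euclidean distance over the 6 libraries of log2 values centred on the siNC mean, were LIPA (distance 0.251) and ARL2BP (0.334). LIPA, the lysosomal acid lipase, was at 8.32 ± 0.568 FPKM in siPGC1a and 22.4 ± 0.343 FPKM in siNC (SD, n = 3 each). Nearest to MMP1, the member with the largest rise on the log2 scale, were SLIRP (0.0732), MTFR2 (0.0824) and UBE2T (0.0886). SLIRP was at 46.4 ± 4.19 FPKM in siPGC1a and 35.3 ± 0.378 FPKM in siNC.

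The word ACACCT, picked because earlier results of these data showed it more often in lower genes, was looked for in the longest 3' UTR annotated by GENCODE for each gene. It stood once each in MMP2, MMP15 and TIMP3 and in none of the other 7 genes, TIMP2 and RECK included. The 3 sites are shown, 5′ to 3′ on the transcript, with the word in capitals.
MMP2: gtatgaataaagACACCTactgagtggccg
MMP15: ccccttgggcccACACCTccttccctctct
TIMP3: ttggctggagggACACCTctcctgggtgtg

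MMP2 and MMP15, the 2 genes with the largest falls of the set, thus hold the word, as does TIMP3, which rose. So do 33.6% of all tested genes with an annotated 3' UTR, and nothing is read from the share in the set. By call, 48.6% of lower, 22.7% of higher and 32.8% of uncalled genes with such a UTR held the word. Their median UTR lengths were 1774, 1098 and 1370 bases. The word was picked for this contrast, so these shares are no independent evidence. The UTRs of MMP2, MMP15 and TIMP3 are 1249, 1455 and 3666 bases long. Among the other tested MMP genes, MMP8, which was lower, also held the word. It was absent from MMP3 and MMP11, also lower, and from MMP9 and MMP16, which were not called. The siRNA sequences are not analysed here, and the part of the word in these values was not tested.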

How the data were processed

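The authors deposited a table of FPKM per gene and library, 1 column for each of 6 libraries. Per the submitters' processing notes, STAR, Picard, featureCounts, DESeq2 and the hg19 build were used, without versions or roles, and per the labels' protocols the libraries were stranded poly(A) single reads. The strand setting of counting is not given in the sources used here.

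From the FPKM values, log2(FPKM + 1) went into limma-trend (limma 3.58.1, R 4.3.3), tested on both sides without a block for replicate number, and genes with a Benjamini-Hochberg adjusted p under 0.05 were called. The filter kept genes whose FPKM averaged 1 or more, and PPARGC1A always. Fold changes are siPGC1a minus siNC and understate the change of low genes. The fit was first tested on simulated data. The read number of the FPKM scaling came from the steps of short miRNA values. Of these, 96.6 to 100% were whole within 0.1 read (20% by chance), with exon lengths from GENCODE 29. That annotation is of another build, so no gene coordinates are given, and RefSeq promoters carry their own build. Intervals are 95%. No library was a copy of another (chi-square per degree of freedom 2.18 to 7.23 for libraries of 1 group, 34.9 to 47.0 across groups).

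The set, the lists and the 12 other settings were chosen with earlier results of these data known. Named from each list were the 2 genes with the smallest adjusted p in each direction, every MMP or TIMP above 0.1 FPKM, and the 3 genes nearest in pattern to MMP2 and to the member with the largest rise. Of the genes this rule names, 1 is not reported here.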

Additional observations from a re-analysis of the deposited data

How the results depend on the processing

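Of the 10 genes, MMP1, MMP2, MMP15, TIMP2, TIMP3 and RECK kept their call and direction in every setting that could test them (12 settings, 11 for RECK, which a filter at a mean of 5 FPKM removes). Their adjusted p was at most 0.0297, reached by TIMP3 without a filter. After quantile normalization 4 of the 10 genes were called higher, with TIMP1 and BSG added. The number of genes called lower was 1607 at the filter of 5 FPKM, where only 7272 genes were tested, and 2169 to 2523 when leaving out 1 library at a time. Uncalled genes near 0 changed sign: MMP14 ranged from -0.056 to 0.000186 when leaving out 1 library at a time, MMP16 from -0.052 to 0.069, and MMP16 was at -0.017 after quantile normalization. With the replicate block 3253 genes were higher and 2826 lower, and MMP17 was called lower (adjusted p = 0.0417). The replicate number was taken to name libraries only. Deviations of same-numbered libraries correlated at 0.077, 0.26 and -0.058. Replicates 1 and 2 of siPGC1a each correlated best with the siNC library of the same number. In contrast, siPGC1a replicate 3 correlated best with siNC replicate 1 (0.25). These values do not settle whether libraries were paired. The block changed no other call of the 10 genes. Groups of 3 limit the precision: the standard error of the log2 fold change was largest for MMP1 and MMP17 among the 10 genes (0.072 and 0.062), and RECK rests on the fewest reads.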
